A study of Homo sapiens with 14 samples.

Results

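Replication-dependent histone genes encode the core histones H2A, H2B, H3 and H4 and the linker histone H1 that package newly made DNA. All genes of the human histone clusters were taken, by the older names that start with HIST1H, HIST2H, HIST3H or HIST4H or by their current names (H1-1 to H1-5, H2AC, H2BC, H3C and H4C with a number), which gave 91 genes, 71 of them protein-coding and 20 pseudogenes. By class, the protein-coding genes comprised 6 H1, 17 H2A, 18 H2B, 15 H3 and 15 H4 genes, with 52 on chromosome 6, 15 on chromosome 1, 1 on chromosome 12 and 3 without a position in the GRCh37 annotation used here. The tables of young and old cells listed 86 of these 91 among 57710 genes, the tables of WT and HMGB2 KD cells listed all 91 among 54612, and the tables of ICM-treated cells listed 74 among 38626.

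The study asked whether inflachromene (ICM), a compound that targets HMGB1 and HMGB2, abundant chromatin proteins, drives IMR90 cells into a senescence-like state. IMR90 is a line of human lung fibroblasts that stops dividing after prolonged passaging. Poly(A)-selected RNA was sequenced from isolate I79 at low passage (I79 young) and high passage (I79 old), from isolate I10 at low passage (I10 young) and high passage (I10 old), from low-passage I79 cells given ICM (I79 ICM), from wild-type cells (WT) and from cells with HMGB2 knocked down by siRNA (HMGB2 KD), with 2 samples named for each of the 7 groups. The deposited tables held 1 column for each young or old group, so these carry no replicate error, while WT, HMGB2 KD and I79 ICM had 2 libraries each. Which isolate the WT and HMGB2 KD cells came from is not in the labels, and no label says that their replicates were separate cultures. The p-values of WT against HMGB2 KD thus measure the spread between these libraries, which may be technical.

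Most messenger RNAs end in a poly(A) tail, but those of replication-dependent histone genes end just after a short stem-loop that is bound by SLBP and cut by a complex holding the U7 small nuclear RNA. They are made in S phase, when NPAT activates the clusters, and are degraded when DNA synthesis stops. Poly(A) selection leaves out the stem-loop-ended form, so the reads described below come from polyadenylated histone transcripts or from stem-loop-ended RNA carried through the selection, and which of them a read came from was not tested. In RNA from whole cultures, fewer cells that transcribe a gene and less RNA of it per cell cannot be told apart.

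The stem-loop is shown for the members on which the results turn. It was searched as GGNNCTNTTNAGNNCC on the coding strand of GRCh37, within 200 bases after the end of the coding sequence. It was present in 65 of 68 protein-coding members searched (not matched in H2BC10, H3C6 and H4C13) and in 1 of 4040 other protein-coding genes on the same chromosomes (0.0248%). There were 7 versions, and 40 members carried the version of H1-2, H2AC6 and H2BC18. Capitals mark the 16 bases of the stem-loop, whose coordinates are given, and lower case marks 5 bases on each side.
H1-2 (chr6:26055972-26055987, minus strand): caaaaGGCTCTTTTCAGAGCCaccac
H2AC6 (chr6:26124897-26124912, plus strand): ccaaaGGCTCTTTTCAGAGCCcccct
H2BC18 (chr1:149783440-149783455, minus strand): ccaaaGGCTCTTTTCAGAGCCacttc
H2BC12 (chr6:27114145-27114160, minus strand): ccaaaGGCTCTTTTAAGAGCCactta
H4C8 (chr6:26285359-26285374, minus strand): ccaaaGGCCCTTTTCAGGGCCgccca
H4C15 (chr1:149832335-149832350, minus strand): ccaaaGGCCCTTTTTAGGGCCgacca
H2AC20 (chr1:149858941-149858956, plus strand): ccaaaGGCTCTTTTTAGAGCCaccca

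The stem-loop started 25 to 70 bases after the coding sequence, with a median of 39 bases. In 18 of the 65 members the GENCODE annotation also held a transcript that ran more than 50 bases past the stem-loop, and in 47 it held none. The annotated transcripts of H2AC6 ran up to 14432 bases past it along the genome, those of H2BC5 12747 bases, those of H2BC18 29195 bases and that of H2BC21 1729 bases, while those of H1-2 and H2BC12 ended 4 and 5 bases after it.

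Members with such a longer transcript were detected more often in the young and old tables. There, 14 of 18 members with a transcript past the stem-loop passed the filter on low counts (77.8%), against 6 of 46 without one (13%). In the WT and HMGB2 KD tables the shares were 9 of 18 (50%) and 6 of 47 (12.8%). Members with a longer transcript held 66.9% to 74.7% of the reads of stem-loop members in the young and old columns, 45.3% to 51.3% in the WT and HMGB2 KD libraries and 39.4% to 39.7% in the I79 ICM libraries. These shares are descriptions of tables that were counted in different ways. The split follows GENCODE 44 transcript ends, while the young and old reads were assigned to models that differ in length for some members. Of members counted as without a longer transcript, H2AC11 was listed with 2250 bases (493 in GENCODE 44), H2BC9 with 2060 (462) and H4C5 with 1487 (412). H2BC12 was shorter, with 381 (495). Whether the listed models run past the stem-loop was not tested, so the split may misplace such members.

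The promoters of H2AC6, H2BC12 and H2BC18 are shown because H2AC6 and H2BC18 were the members called between old and young cells, in opposite directions, and H2BC12 was the member with the most reads in the WT and HMGB2 KD cells. The 150 bases before each transcript start were taken from RefSeq on GRCh38.p14. Capitals mark CCAAT (bound by NF-Y), TATAAA (the TATA box) and ATTTGCAT (the octamer bound by POU2F1), each on either strand.
H2AC6 (chr6:26124022-26124171, plus strand): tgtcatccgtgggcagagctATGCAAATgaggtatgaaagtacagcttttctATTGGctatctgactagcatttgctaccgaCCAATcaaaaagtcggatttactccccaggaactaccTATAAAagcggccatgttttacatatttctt
H2BC12 (chr6:27146859-27147008, minus strand): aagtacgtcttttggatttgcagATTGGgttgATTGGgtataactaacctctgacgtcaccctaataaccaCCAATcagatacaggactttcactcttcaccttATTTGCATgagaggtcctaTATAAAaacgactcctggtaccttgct
H2BC18 (chr1:149812371-149812520, minus strand): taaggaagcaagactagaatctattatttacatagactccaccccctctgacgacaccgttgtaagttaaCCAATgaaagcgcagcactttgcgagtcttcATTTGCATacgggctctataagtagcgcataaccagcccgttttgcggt

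The octamer and CCAAT stood in all 3 of these windows, and TATAAA in those of H2AC6 and H2BC12. Over 300 bases around the start, RefSeq held a promoter for 66 protein-coding members, of which 56 had CCAAT (84.8%, against 34.6% of 35116 promoters of all genes), 44 had TATAAA (66.7% against 11.5%) and 26 had the octamer (39.4% against 1.77%). The octamer stood in 14 of 18 H2B promoters (77.8%) and 11 of 16 H2A promoters (68.8%), in 1 of 13 H3 promoters and in no H1 or H4 promoter. That H3 promoter was the one listed for H3C4, and its window is the same as that of the H2A gene H2AC7, so this sequence is counted in both classes. Windows of neighbouring H2A and H2B genes on opposite strands also overlap. In pairs such as H2AC6 with H2BC4, H2AC1 with H2BC1 and H2AC11 with H2BC11 the same octamer site is counted for both genes. The motif counts are thus of promoters and not of separate sites. CCAAT stood in all promoters of the H1, H2A, H2B and H3 classes and in 3 of 13 H4 promoters (23.1%).

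Reads totalled 14991385 to 20632959 estimated reads in the young and old columns, 33561766 to 41168932 counts in the WT and HMGB2 KD libraries, and 13290131 and 10971132 reads in the I79 ICM libraries. All 9 fibroblast markers were expressed in every library, from 65.7 to 14781 CPM (counts scaled to a library of 1000000 reads, here over the genes that all tables share). The epithelial markers summed to 0.172 to 0.757 CPM and the endothelial markers to 0 to 8.53 CPM, and of the blood markers CD68, a lysosomal protein, made up nearly the whole sum of 24.2 to 158 CPM. CD68 rose in old cells, with 24.1 and 158 CPM on this scale in young and old I79 cells and 26.3 and 80.2 CPM in those of I10, while PTPRC and HBB stayed at or below 0.38 CPM, and the part of these markers in the histone results was not tested.

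The members took up a small share of poly(A) RNA in every group, and the largest in the ICM libraries. Their summed level was 80.7 CPM of all gene reads in I79 young (95% Wilson interval 76.1 to 85.4) and 89.9 in I79 old (85.7 to 94.2). In I10 it was 87.6 CPM in young cells (83.4 to 92.1) and 139 in old cells (134 to 144). The intervals of young and old cells did not overlap in either isolate, though those of I79 lay close, and they cover counting error only. Without H2AC6, H1-2 and H2BC12 the sum lay the other way, at 51.5 CPM in young and 35.3 in old I79 cells and at 60.6 and 54.6 CPM in those of I10. The WT libraries had 105 ± 13.6 CPM (SD, n = 2) and the HMGB2 KD libraries 102 ± 15.1, so the means lay closer together than the libraries of either group. The I79 ICM libraries had 918 ± 2.48 CPM (SD, n = 2). Young and old cells, WT and HMGB2 KD cells, and ICM-treated cells were counted in different ways. The treatment and the way of counting cannot be told apart in the ICM level.

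**Figure D1:**
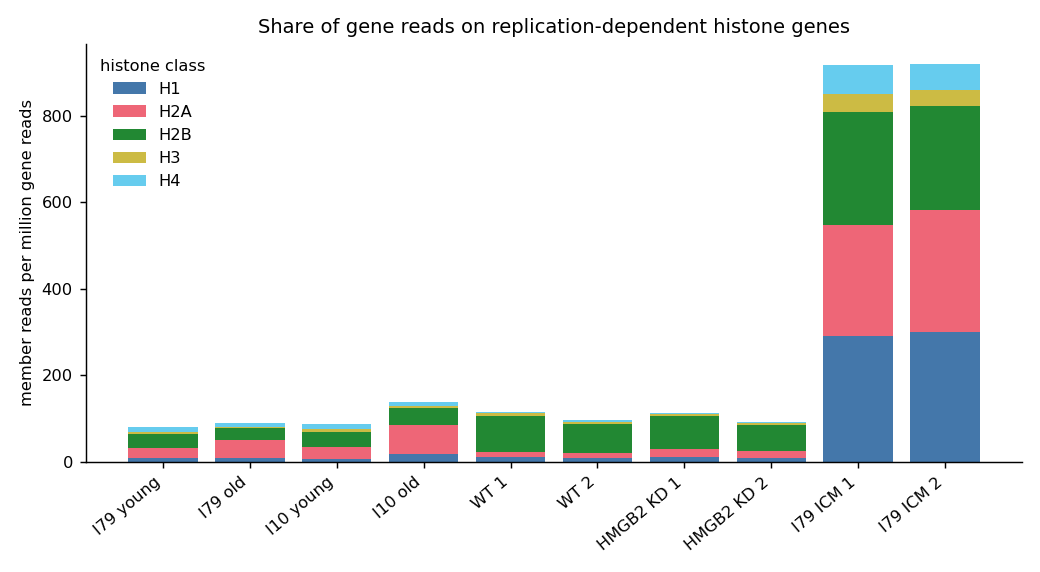
Summed level of the members (reads scaled to CPM) in each young or old column and each library, stacked by histone class (H1, H2A, H2B, H3, H4). The 8 bars outside the ICM group lie between 80.7 and 139 CPM, and the 2 ICM bars stand at 916 and 920 CPM. The ICM libraries were counted in another way than the other bars, and WT and HMGB2 KD in another way than young and old.

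A few genes carried most of these reads. H2AC6 alone, an H2A gene, made up 19% and 17.3% of member reads in I79 young and I10 young, and 40.4% and 39.3% in I79 old and I10 old. In the WT and HMGB2 KD libraries the H2B gene H2BC12 led, with 33.3% to 39.3%, and in the I79 ICM libraries the linker histone H1-2, with 31.3% and 32.1%. The 5 leading genes held 49.8% to 75.6% of member reads in the young and old columns and 82.4% to 85.1% in the WT and HMGB2 KD libraries. At the other end, 28 of 91 members had no read in any of the 4 WT and HMGB2 KD libraries and 28 of 86 had none in any of the 4 young and old columns. For the reads assigned to a gene, and for counting error only, a 0 allows up to 0.15 to 0.206 CPM per young or old column. In the WT and HMGB2 KD libraries a 0 sets no upper limit, since reads matching several places or overlapping genes were left out and the chaperone ASF1B and the importer IPO4 were also at 0 in all 4. H2AC6 and H2BC18 were the members called between young and old cells at the thresholds given below, while most of the rest were too low to test.

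The first comparison asked how the histone transcripts of old cells differ from those of young cells, with the isolates as replicates. A gene was called when its adjusted p in edgeR's quasi-likelihood test was under 0.01 and its log2 fold change past 0.6 in either direction. By this rule H2AC6 rose and H2BC18 fell, which made 2 of the 22 members that passed the filter (9.09%), beside 9.37% of all 15108 genes tested. By direction, 1 of 22 members rose (5.66% of all genes did) and 1 of 22 fell (3.71% of all genes). The share of members called was thus near that of all genes. At an unadjusted p under 0.05 there were 10 members, 45.5% of those tested, against 45.3% of all genes. The median log2 fold change was 0.05 over the tested members and -0.01 over all genes.

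H2AC6, which encodes an H2A core histone, stood at 14.3 CPM in I79 young and 38.0 CPM in I79 old. In I10 it stood at 14.1 CPM in young and 60.6 CPM in old cells. Both old columns were above both young columns. How many of all genes had old and young columns separated in this way was not counted. Between the WT and HMGB2 KD libraries 53.8% of all genes were. Within an isolate this was a 2.65-fold rise in I79 (95% exact binomial interval 2.28 to 3.09) and a 4.30-fold rise in I10 (3.76 to 4.93), and over both isolates the log2 fold change was 1.76 ± 0.20 (SE; edgeR quasi-likelihood test, adjusted p = 0.0073). H2AC6 overlaps another annotated gene without a symbol, and whether the counting used strand is not given in the sources used here, so reads from the overlap cannot be told apart.

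H2BC18, which encodes an H2B core histone, moved the other way. It stood at 6.40 CPM in I79 young and 1.90 CPM in I79 old, and at 7.77 CPM in I10 young and 2.05 CPM in I10 old. Both old columns were below both young columns, at 0.297 of the young level in I79 (95% exact interval 0.196 to 0.440) and 0.263 in I10 (0.178 to 0.379). Its log2 fold change over both isolates was -1.84 ± 0.25 (SE; edgeR quasi-likelihood test, adjusted p = 0.0098). This call lay close to the threshold and was lost in DESeq2 (adjusted p = 0.0103) and with length-scaled counts (edgeR, adjusted p = 0.0216). Part of its annotated span overlaps FCGR1A, an immune receptor gene.

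**Figure D2:**
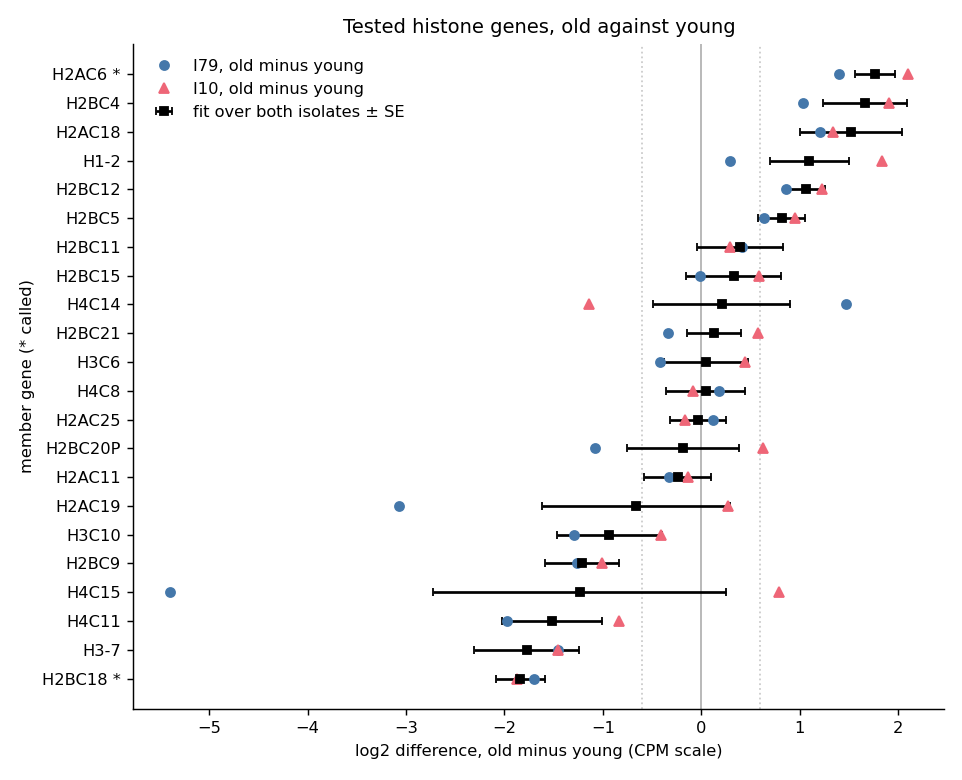
Log2 difference between old and young cells for the 22 tested members: circles give I79, triangles I10, and squares with bars the fit over both isolates ± SE, with dotted lines at 0.6 in each direction. H2AC6 at 1.76 and H2BC18 at -1.84 carry the star of a call, and the isolates lie furthest apart for H4C15, H2AC19, H4C14, H2BC20P and H1-2; H4C15 and H2AC19 had 0 reads in I79 old, so their I79 points depend on the prior count of 2.

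Other H1 and H2B members with many reads were higher in the old column of each isolate without being called. H1-2, the linker histone gene, was at 7.49 and 9.22 CPM in I79 young and old and at 5.63 and 20.4 CPM in I10 young and old. Its log2 difference was thus 0.30 in I79 and 1.84 in I10, with a fitted value of 1.10 ± 0.40 (edgeR, adjusted p = 0.10). H2BC12 was at 5.44 and 9.98 CPM in I79 and at 5.32 and 12.6 CPM in I10, with a log2 fold change of 1.06 ± 0.20 (edgeR, adjusted p = 0.020). For H1-2 and H2BC12, as for H2AC6, both old columns were above both young columns, and the share of all genes separated in this way was not counted.

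H2BC4 was at 0.576 and 1.30 CPM in I79 young and old and at 0.991 and 4.03 CPM in I10 young and old (log2 fold change 1.66 ± 0.43, edgeR, adjusted p = 0.043). H2BC5 was at 3.14 and 4.94 CPM in I79 and at 3.81 and 7.46 CPM in I10 (0.82 ± 0.24, edgeR, adjusted p = 0.060). Both are H2B genes, and for each the groups did not overlap, though the share of all genes with such a separation was not counted. With a threshold of 0.05 on the adjusted p, 4 members were called, H2AC6, H2BC12 and H2BC4 as higher and H2BC18 as lower.

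H2BC21, a further H2B gene, went in opposite directions in the isolates. It was at 8.90 and 6.998 CPM in I79 young and old and at 7.67 and 11.5 CPM in I10 young and old. The fitted log2 fold change was 0.13 ± 0.28 (edgeR, adjusted p = 0.74) and turned to -0.08 with plain library totals. H2AC25, an H2A gene of the small cluster on chromosome 1, was at 2.95 and 3.20 CPM in I79 and at 3.81 and 3.37 CPM in I10 (-0.03 ± 0.28, edgeR, adjusted p = 0.94), and H2AC11 at 1.73 and 1.36 CPM in I79 and at 2.50 and 2.27 CPM in I10 (-0.24 ± 0.34, edgeR, adjusted p = 0.62).

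The H4 genes H4C14 and H4C15 are near-identical copies, and so are the H2A genes H2AC18 and H2AC19, so reads can be assigned to either copy. H4C15 went from 4.61 CPM to 0 between the I79 columns, young to old, and went from 3.60 to 6.30 CPM between those of I10. H4C14 was at 2.43, 6.94, 3.91 and 1.71 CPM in the same order, so the copies moved in opposite directions within each isolate. Summed, the H4 copies stood at 7.04, 6.94, 7.51 and 8.01 CPM, a log2 difference of -0.02 in I79 and 0.09 in I10. The H2A copies, of which H2AC19 was at 0.832, 0, 4.22 and 5.14 CPM, summed to 1.16, 1.01, 4.52 and 5.99 CPM in that order, and so differed more between the isolates than with passage. Values for a single gene of either pair are uncertain.

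Counted within each isolate, where a single column per group allows no test, 14 of 22 members lay past 0.6 in I79 (63.6%; 41.2% of all genes) and 13 of 22 in I10 (59.1%; 37.3% of all genes). In both isolates, 5 of 22 were above 0.6 (14.1% of all genes) and 4 of 22 below -0.6 (13.1% of all genes). Those above were H2AC6, H2BC12, H2BC4, H2BC5 and H2AC18, and those below were H2BC18, H2BC9, H3-7 and H4C11, from 3 classes. H2AC18 counts here as a single gene, while its sum with the copy H2AC19 changed by -0.20 in I79 and 0.41 in I10, within 0.6 in both. Apart from H2BC18, the members below were low in every column, from 0.163 CPM for H3-7 in I79 old to 2.45 CPM for H2BC9 in I10 young.

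At the level of single transcripts, 0 of 26 tested member transcripts were called by edgeR, as were 0 of all 46073 transcripts (0%). At an unadjusted p under 0.05 there were 4 member transcripts (15.4%) and 6910 of all (15%). DESeq2 called 3882 transcripts, 1 of them a member, the spliced H2AC6-203. Its estimated reads went from 5.96 to 244 in I79, young to old, and from 37.1 to 303 in I10. The single-exon H2AC6-202 went from 116 to 0 reads in I79 and from 146 to 732 in I10, and the spliced H2AC6-201 from 102 to 456 in I79 and from 86.8 to 60.2 in I10. The rise of H2AC6 was thus assigned to different transcripts in the isolates, with H2AC6-203 higher in the old column of each. H2BC18 reads lay nearly all on the single-exon H2BC18-201, at 98.4 and 34.7 reads in I79 young and old and 144 and 36.0 in I10. The models that took these reads were longer than in GENCODE 44, with 1954 bases (492 in GENCODE 44) for H2BC18-201 and 1654 (519) for H2AC6-202. Reads on either are therefore not reads of the short transcript alone, and whether the models run past the stem-loop was not tested.

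In TPM (transcripts scaled by length and library), which allow levels of different genes to be compared per length, H2BC12 was the highest of the named members in young cells, with 41.4 TPM in I79 and 40.6 in I10. H1-2 followed with 25.8 and 19.7 TPM, while H2AC6 was at 15.8 and 16.1 TPM. In I79 young H4C11 (17.7 TPM) and in I10 young H2AC19 (17.7 TPM) lay just above H2AC6. In I79 old, H2BC12 was at 67.98 TPM, followed by H2AC6 at 39.6 and H1-2 at 28.7 TPM. In I10 old, H2BC12 was at 81.9, H1-2 at 60.7 and H2AC6 at 60.1 TPM, with the last 2 hardly apart, so the order of H2AC6 and H1-2 differed between the isolates. H2BC12 was listed only as its coding transcript of 381 bases, so its level per length rests on that short model.

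Several genes of histone supply and DNA replication fell in old cells. Of 29 genes for histone transcription and 3′ end processing, 0 rose and 3 fell, with a median log2 fold change of -0.23. SLBP, the stem-loop binding protein, was at 53.3 and 50.9 CPM in I79 young and old and 49.1 and 38.6 CPM in I10 (-0.21 ± 0.12, edgeR, adjusted p = 0.25). NPAT, which activates the clusters, was at 23.2 and 19.4 CPM in I79 and 21.2 and 18.9 CPM in I10 (-0.21 ± 0.13, edgeR, adjusted p = 0.27). The 3 that fell were SRRT (-1.08) and NCBP1 (-0.93), which act with the cap-binding complex, and PRKDC (-0.91), a DNA-dependent protein kinase.

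Of 19 histone chaperones and importers tested, 6 fell and 0 rose (median -0.75). They were ASF1B (-2.10), ASF1A (-1.70), NASP (-1.49), CHAF1B (-1.39), CHAF1A (-1.30) and SSRP1 (-0.90), which carry or deposit histones on DNA. Of 11 tested genes listed as replication-independent variants, 5 fell and 0 rose (median -0.62). Many such variants, though not all on the list, are made outside S phase or at special sites. Those that fell were MACROH2A2 (-2.71), CENPA (-1.94), H2AX (-1.89), H2AZ1 (-1.08) and H2AZ2 (-1.02). Of 16 S phase genes tested, 12 fell and 0 rose (median -2.07), led by CDC45 (-2.75) and CDC6 (-2.70), which load and start replication forks, TK1 (-2.25), a nucleotide kinase, and GINS2 (-2.24), MCM3 (-2.17) and MCM5 (-2.15) of the replicative helicase. Over all genes tested the median was -0.01, with 5.66% called higher and 3.71% called lower. Of the 9 fibroblast markers 1 rose and 0 fell, and of the blood markers CD68 rose.

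The second comparison asked what loss of HMGB2 did to the same transcripts. HMGB2 stood at 27.1 and 27.3 CPM in the WT libraries and fell to 3.22 and 3.64 CPM after the knockdown, a log2 fold change of -2.99 ± 0.16, so the libraries matched their labels. Of 20 members tested, 0 were called (edgeR quasi-likelihood test), beside 5.18% of all 15335 genes, 2.84% higher and 2.33% lower. DESeq2 also called 0 members. At an unadjusted p under 0.05, edgeR had 4 members, 2 higher and 2 lower (20% of members, 23.9% of all genes), and DESeq2 had 3. The median log2 fold change was 0.11 over members and 0.00 over all genes.

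H2AC6 was at 11.0 and 10.2 CPM in WT against 17.2 and 14.5 CPM in HMGB2 KD, with a log2 fold change of 0.57 ± 0.16 (edgeR, adjusted p = 0.034). H2BC5 was at 6.54 and 5.44 CPM in WT against 10.7 and 8.78 CPM in HMGB2 KD (0.70 ± 0.20, edgeR, adjusted p = 0.036). In both genes each HMGB2 KD library was above each WT library. H2BC21 lay the other way, with 22.4 and 18.4 CPM in WT and 15.4 in either HMGB2 KD library (-0.40 ± 0.15, edgeR, adjusted p = 0.11). Groups that did not overlap were common, with 9 of 20 members (45%) and 53.8% of all genes.

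H2BC12, the member with the most reads, was at 44.1 and 36.8 CPM in WT against 44.3 and 31.6 CPM in HMGB2 KD, so the groups overlapped (-0.09 ± 0.17, edgeR, adjusted p = 0.80), and its direction turned when the first WT or the second HMGB2 KD library was left out. H1-2 also overlapped, at 9.99 and 7.45 CPM against 10.02 and 7.80 CPM (0.03 ± 0.20, edgeR, adjusted p = 0.96; -0.03 with plain library totals). H2BC4 was at 3.56 and 2.36 CPM in WT against 4.32 and 4.06 CPM in HMGB2 KD (0.50 ± 0.28, edgeR, adjusted p = 0.31).

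H3C6, the H3 gene with the most reads here, was at 3.39 and 2.73 CPM in WT against 2.35 and 3.04 CPM in HMGB2 KD (adjusted p = 0.78 in edgeR). H4C15, an H4 gene, was at 1.55 and 1.29 CPM against 1.28 and 0.702 CPM (adjusted p = 0.54 in edgeR). Neither difference passed the test. The other named members, H3-7, H2BC11, H2BC8 and the pseudogene H2BC20P, lay between 0.321 and 2.05 CPM in every library, had overlapping groups and adjusted p-values from 0.83 to 0.96 in edgeR. H2BC18 was at 0.292 and 0.429 CPM in WT against 0.137 and 0.0502 CPM in HMGB2 KD, which is 10 and 16 counts against 5 and 2 (edgeR, adjusted p = 0.19).

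**Figure D3:**
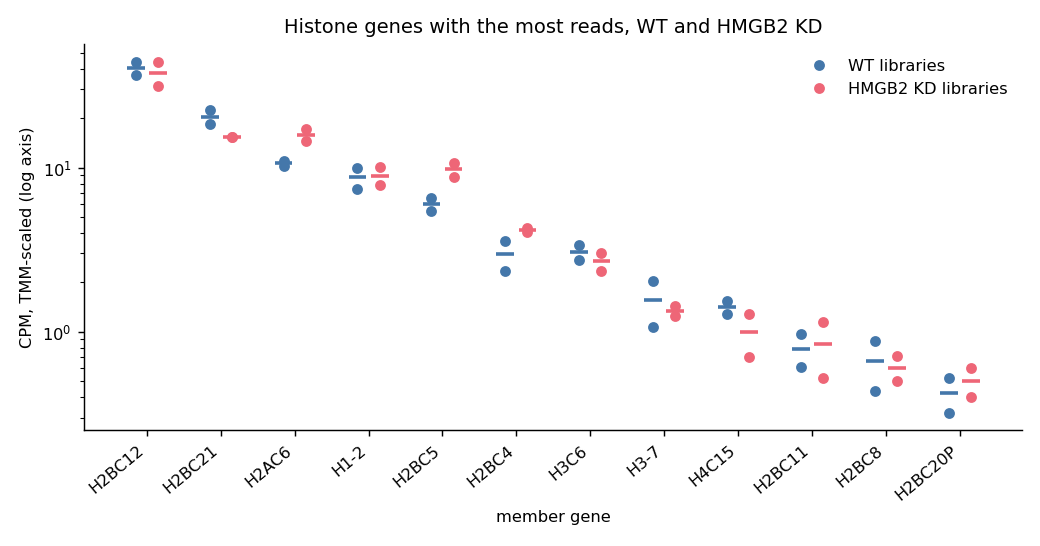
CPM (log axis) of the 12 tested members with the most reads in each WT library and each HMGB2 KD library, with short lines at the group means. H2AC6 and H2BC5 lie higher in both HMGB2 KD libraries and H2BC21 lower, while H2BC12 and H1-2 overlap; no member was called.

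No gene of the histone supply and S phase lists was called after the knockdown. Among 29 genes of histone transcription and processing, 17 chaperones and importers, 11 replication-independent variants and 17 S phase genes tested, 0 were called in either direction by edgeR, with medians of -0.07, -0.18, -0.07 and -0.03. DESeq2 also called 0 of them, and at an unadjusted p under 0.05 edgeR had 5, 2, 2 and 2 in that order. SLBP was at 60.2 and 57.4 CPM in WT against 67.1 and 57.3 CPM in HMGB2 KD (0.08 ± 0.13, edgeR, adjusted p = 0.78). NPAT was at 20.9 and 24.6 CPM in WT against 19.7 and 15.4 CPM in HMGB2 KD (-0.38 ± 0.16, edgeR, adjusted p = 0.16). Of the 9 fibroblast markers, COL1A1 (1.00), PDGFRB (1.07) and VIM (0.78) rose and COL3A1 (-1.18) fell.

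The third comparison set the I79 ICM libraries beside untreated cells. The ICM-treated libraries were prepared to match ribosome profiling and were counted by transcript region with reads shared between copies, whereas the young and old cells were estimated per transcript and the WT cells counted per gene. The treatment and these differences cannot be told apart, so no test was run and values are given on the CPM scale over the genes that every table holds. A minimum that counts the ICM libraries admits members through their ICM reads. Members were therefore taken by a mean of at least 0.5 CPM in the I10 columns and HMGB2 KD libraries, which enter none of the ratios to I79 young or I79 old. This minimum was chosen after the data were seen. Of 21 such members, 13 were above I79 young by more than 0.6 on the log2 scale (61.9%; 26% of all 13606 genes) and 4 below it by more than 0.6 (19%; 31.5% of all genes), so 17 of 21 lay past it in either direction (57.5% of all genes).

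The median log2 difference from I79 young was 1.51 over these 21 members and -0.10 over all genes. As a background without ICM, WT cells against I79 young, also from tables counted in different ways, had 6 of 21 members above 0.6 (28.6%; 19.6% of all genes) and 12 below -0.6 (57.1%; 23.2% of all genes). Against I79 old, 15 of 21 members were above 0.6 in the ICM libraries (71.4%; 29.8% of all genes) and 2 below -0.6 (9.52%; 27.4% of all genes). These comparisons share the ICM libraries. Both ICM libraries were above all 8 other libraries or columns for 13 of 21 members (61.9%; 23.3% of all genes). Those 8 include the I10 columns and HMGB2 KD libraries that set the minimum, so this count is not independent of it. With the mean taken over the ICM, I79 and WT columns and libraries instead, 33 members passed, and the further 12, H3C4, H2AC7, H2AC18 and H2AC20 among them, were under the minimum in the I10 columns and HMGB2 KD libraries. The counts over them, 25 of 33 above 0.6 (30.1% of all genes) and 29 of 33 past it in either direction (59.5%), are in part set by the ICM reads that enter that mean.

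H1-2 had 291 and 301 CPM in the ICM libraries, against 8.42 CPM in I79 young, 9.24 in I79 old and 10.7 and 7.97 in WT. Its log2 difference from I79 young was 5.11. H2BC12 had 125 and 115 CPM, against 6.11 in I79 young, 9.99 in I79 old and 47.3 and 39.4 in WT, so the difference from I79 young was 4.26 and that from WT 1.47. For H2BC12 a part of the distance between the tables was thus present without ICM. The models listed for young and old cells held almost no UTR for H1-2 (642 bases, 639 coding) and H2BC12 (381, 378 coding). ICM reads in the UTRs were counted, so for both genes the difference from I79 young sets unlike regions beside each other.

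H2AC6 had 94.8 and 108 CPM in the ICM libraries, 16.1 in I79 young, 38.1 in I79 old and 11.8 and 10.9 in WT. H2BC21 had 63.5 and 58.9 CPM against 9.97, 7.02, and 24.0 and 19.7 CPM in the same order, H4C8 43.3 and 41.1 against 1.22, 1.24, and 0.414 and 0.488, and H2AC20 26.3 and 27.4 against 1.03, 0, and 0.532 and 0.344. In each of these genes both ICM libraries were above every value set beside them. H2AC18 and H2AC19, the identical H2A copies, had 60.3 and 65.0 CPM each, since their reads were split evenly, against 0.411 and 0.904 CPM in I79 young. In the WT libraries H2AC18 had 1 and 1 counts and H2AC19 3 and 0 counts, in tables that leave out reads matching several places, so these counts say little of their level.

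**Figure D4:**
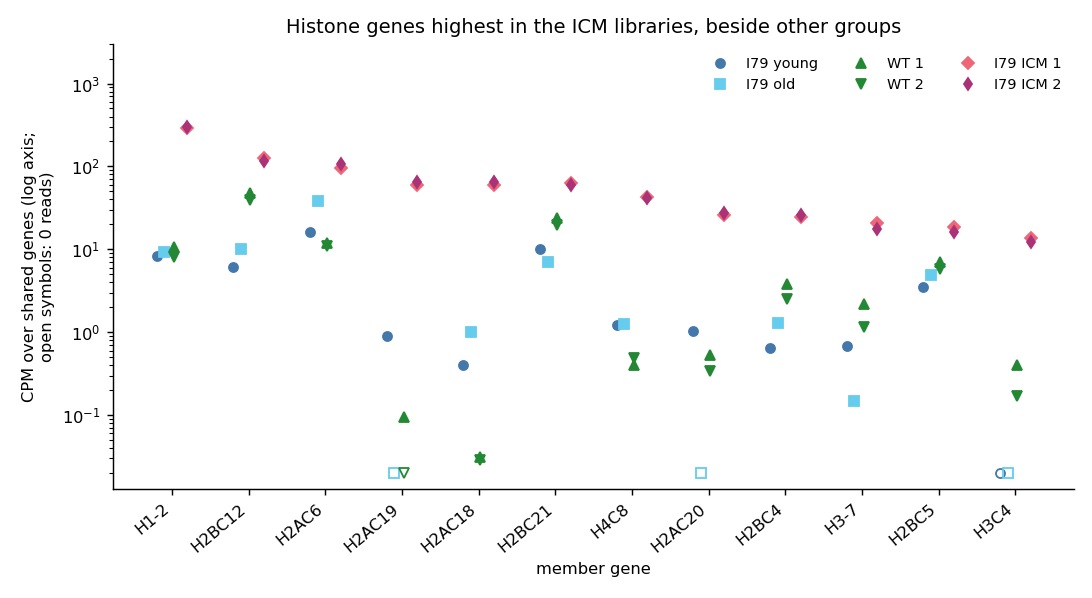
CPM over shared genes (log axis) of the 12 members highest in the ICM libraries, in I79 young, I79 old, the WT libraries and the I79 ICM libraries, with open symbols for 0 reads. The genes were chosen for their ICM level, and the ICM libraries lie highest for each of the 12, from 12.3 CPM for H3C4 to 301 CPM for H1-2, and the tables were counted in different ways.

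The lower-ranked of the 12 members were H2BC4 at 24.8 and 25.7 CPM, H3-7 at 20.7 and 17.7, H2BC5 at 18.7 and 16.2 and H3C4 at 13.8 and 12.3. H3C4, an H3 gene, had no read in I79 young or I79 old, where its model held 411 bases (408 coding). Among the members lower than in I79 young was H2BC18, at 1.21 and 1.07 CPM in the ICM libraries, 7.23 in I79 young, 1.88 in I79 old and 0.315 and 0.459 in WT. The others were H2AC11, H2BC9 and H4C11, from 0.390 to 1.40 CPM in the ICM libraries. H2BC18, H2BC9 and H4C11 were lower still in both WT libraries, while H2AC11 overlapped with WT.

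Most S phase genes and chaperones lay below I79 young in the ICM libraries. The counts are relative to I79 young, over genes with a mean of at least 0.5 CPM in the ICM, I79 and WT columns and libraries. Of all 14390 such genes, 29.3% were below -0.6 and 30.1% above 0.6. Of 17 S phase genes, 15 were below -0.6 and 2 above 0.6 (median -2.91). Of 19 chaperones and importers, 12 were below and 0 above (-1.44). For transcription and processing, 14 of 29 genes were below and 3 above (-0.60), and 8 of 12 replication-independent variants were below and 2 above (-0.80). SLBP was at 45.7 and 40.1 CPM in the ICM libraries and 59.9 in I79 young, a log2 difference of -0.48. NPAT was at 8.27 and 9.37 CPM against 26.1, a log2 difference of -1.55. Of the 9 fibroblast markers, 5 were below -0.6 and 0 above.

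The ICM tables also gave the part of the transcript that each read fell in. Over the 65 members with coding reads in the first library, 18.5% of reads lay in the 5′ UTR, 65.6% in the coding sequence and 15.9% in the 3′ UTR. In the second library, with 64 such members, these were 20.3%, 65.6% and 14.1%. All 14678 and 14505 genes with coding reads had 10.7% and 10.9% in the 5′ UTR, 63.1% and 64.1% in the coding sequence and 25.9% and 24.8% in the 3′ UTR. Members thus had a larger 5′ and a smaller 3′ share than genes in general in both libraries, and H1-2 alone held 31.4% and 32.2% of the member reads. Without H1-2 the members had 18.9% and 20.4% in the 5′ UTR, 57.9% and 58.8% in the coding sequence and 23.2% and 20.8% in the 3′ UTR, so most of the distance in the 3′ share came from this gene in both libraries, and the coding share lay below that of all genes.

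The genes differed widely. H1-2 had 675 and 654 reads in the 5′ UTR, 3131 and 2586 in the coding sequence and 0 in the 3′ UTR of either library. H2AC6 had 2.67% and 3.17% of its reads in the 3′ UTR, and H4C8 1.24% and 2.26%. H2AC20 and H2BC4 had reads in the coding sequence alone.

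By contrast, H2BC21 had 82.4% and 84.3% of its reads in the 3′ UTR, H3-7 94.6% and 97.1%, and H2BC12 52.3% and 49.6%. H2BC21 and H3-7 were among the members with an annotated transcript past the stem-loop, and H2BC12 was not. As an alternative, UTR reads were left out of the ICM libraries only, while I79 young kept all its reads. H2BC21, for which this ratio sets a part beside a whole, went from 2.60 above I79 young to -0.59 on the log2 scale. H2BC12 went from 4.26 to 3.08. Its I79 young reads were assigned to a model of 381 bases, 378 of them coding, so for H2BC12 the lower value compares more similar regions. Both falls follow from reads taken out of 1 side, so that of H2BC21 does not show a reversal. The annotation behind these regions is not given in the sources used here, so a region without reads may be one that was not annotated.

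**Figure D5:**
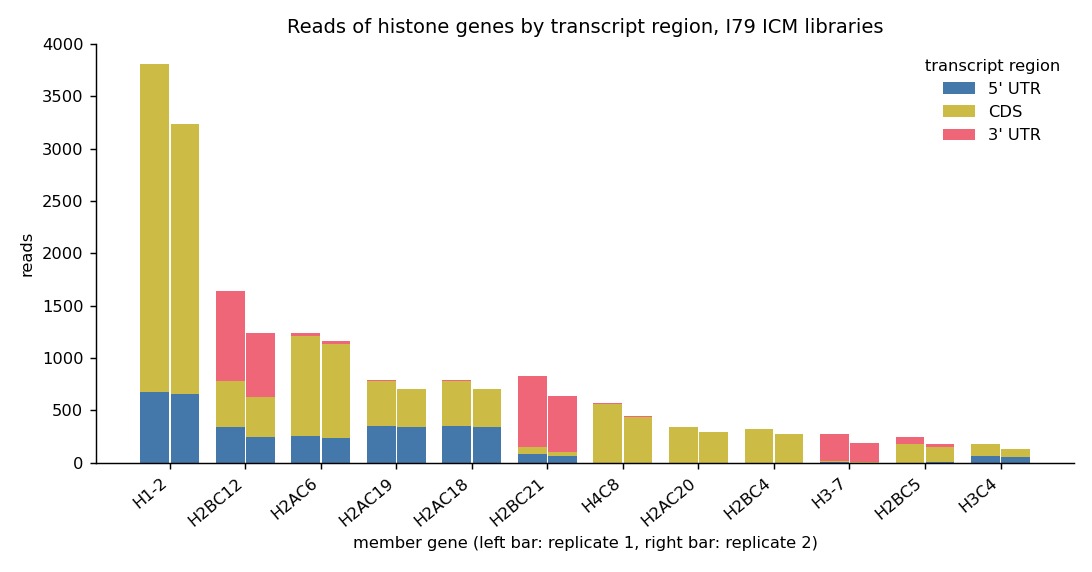
Reads of the 12 members highest in the ICM libraries, by transcript region (5′ UTR, CDS, 3′ UTR), with replicate 1 in the left bar and replicate 2 in the right bar of each gene. H1-2 reaches 3806 and 3240 reads with none in the 3′ UTR, while H2BC21, H3-7 and H2BC12 hold 49.6% to 97.1% of theirs there.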

How the data were processed

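Poly(A)-selected RNA of IMR90 cells was analysed from the deposited tables. For young and old cells the authors deposited estimated counts and TPM per transcript, with 1 column per group and no statement on whether the replicates were pooled. Transcript identifiers matched the GENCODE 44 annotation on GRCh37 for 97.7% of transcripts, holding 97.2% to 97.4% of reads, and estimates were summed per gene and rounded. The tables of WT and HMGB2 KD cells hold whole-number counts per gene, as deposited, with 16.9% to 18.0% of reads in closing rows that name no gene, which were left out. For ICM-treated cells the deposited estimated counts were given per transcript region and were summed. The submitters' processing notes name STAR 2.6.0c, featureCounts, DESeq2, deepTools and GRCh37, with no role given for each table.

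Counts were tested in edgeR 4.0.16 (TMM scaling, filterByExpr, quasi-likelihood test, Benjamini-Hochberg adjustment over all features, isolate as a covariate for old against young), with an adjusted p under 0.01 and a log2 fold change past 0.6 as in the study's methods. The test was checked on simulated data. CPM between tables used totals over 25352 shared genes and a prior count of 2, and a minimum of 0.5 CPM over the I10 and HMGB2 KD columns was added after the data were seen. DESeq2 1.42.0, plain totals, no filter, another threshold, other counts and leaving out libraries were tried as alternatives. WT, HMGB2 KD and ICM replicates differed by more than sampling noise (chi-square per degree of freedom 24.7, 37.6 and 2.10). Each library was entered as a replicate, though this spread may be technical and does not show separate cultures. Members and gene lists were chosen with earlier results of these data known. Values are given in every library for the 12 members with the most reads in a comparison and all called members, and for up to 6 called genes of a list with SLBP and NPAT. Members named outside this rule (H2BC18 in WT and HMGB2 KD and in ICM, and members counted in groups of 5 or fewer) were chosen after their values were seen. H2BC12L lies outside the clusters and was left out.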

Additional observations from a re-analysis of the deposited data

Results flagged for a closer look

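Among the 22 tested members, 3 lay past 0.6 in opposite directions in the isolates (13.6%; 1.06% of all genes), and with 1 column per group the difference was not tested. The log2 old-minus-young value of I79 minus that of I10 was -6.18 for H4C15, 2.61 for H4C14 and -1.71 for the pseudogene H2BC20P. For the near-identical H4C14 and H4C15 the summed reads moved by -0.02 in I79 and 0.09 in I10. H2BC20P was at 1.73 and 0.759 CPM in I79 young and old and at 1.36 and 2.15 CPM in I10 young and old.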

How the results depend on the processing

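For HMGB2 KD against WT, 0 members were called in DESeq2, with plain totals, without the filter and when any single library was left out, and 1 (H2BC5, higher) was called with an adjusted p under 0.05 and 1 (H2BC5 again) with the replicate number as a block. The labels do not say that a number marks a shared culture or day, and same-numbered libraries deviated together only weakly (correlation 0.17). Over the alternatives the adjusted p of H2BC5 ran from 0.0037 to 0.27 and that of H2AC6 from 0.0089 to 0.24. Over all genes the block called 1244 against 794, an adjusted p under 0.05 called 1187, and leaving out the second HMGB2 KD library 316; plain totals turned 436 higher and 358 lower into 384 and 481. H1-2 turned to -0.031 with plain totals. Leaving out each library gave -0.37 to 0.13 for H2BC12, -0.17 to 0.26 for H1-2, -0.61 to 0.32 for H3-7, -0.59 to 0.54 for H2BC11, -0.55 to 0.46 for H2BC8, -0.083 to 0.63 for H2BC20P and -0.047 to 0.19 for SLBP; the cause was not tested.

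For old against young, H2AC6 was called under every alternative. DESeq2 called 1 member, length-scaled TPM counts 1, no filter 6 of 58 and an adjusted p under 0.05 called 4, where no filter tests more genes and the looser threshold admits more. Over all genes these settings called 2165 (DESeq2), 4253 (no filter) and 3846 (adjusted p under 0.05), against 1416. Plain totals moved the median of all genes to -0.22 and turned 855 higher and 561 lower into 1010 and 2099, with 8 of 22 members above 0 in place of 12; there H2BC21 was at -0.083 and H4C14 at -0.0024, and with length-scaled counts H4C14 was at -0.0056. Without either isolate, H1-2 ran from 0.30 to 1.84, with no test. Among member transcripts DESeq2 called 1 and the other settings 0. In the ICM comparison 29 of 33 members were past 0.6 in either direction (59.5% of all genes) with the minimum over the ICM, I79 and WT libraries, and 29 and 30 without either ICM library. With the minimum over I10 and HMGB2 KD alone, chosen after the data were seen, there were 17 of 21 (57.5% of all genes), since fewer genes pass, and the median fell from 2.64 to 1.51. H2BC21 went to -0.59 when UTR reads were left out of the ICM libraries only, a ratio of a part to a whole. The ICM share without pseudogenes was 914 CPM. Depth limits the lowest members, and the single column per young or old group leaves the replicate error of those values unknown.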

Other observations

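H2AC25 had no count in any of the 4 WT and HMGB2 KD libraries, which leave out reads matching several places or overlapping genes and so set no upper limit on its level, while it was at 2.95 to 3.81 CPM in the young and old columns and at 3.36 and 4.50 CPM in the ICM libraries. H2AC7 had no read in the young, old and WT columns and libraries and 4.15 and 4.67 CPM in the ICM libraries, from 54.2 and 50.3 reads. The cause of these gaps between tables was not tested.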
